A study of Mus musculus with 18 samples.

Results

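Brown adipocyte genes were followed in whole mammary glands of virgin female mice that lacked or kept the tyrosine kinase domain of Ron, the receptor encoded by Mst1r. Of the 18193 genes measured with a unique symbol, 10 made up the group, namely Ucp1, Cidea, Elovl3, Otop1, Cox7a1, Cox8b, Ppargc1a, Dio2, Zic1 and Prdm16. Every probe set annotated to a single symbol among them was taken, 20 of 45037 probe sets. Ppargc1a had 5 probe sets, Prdm16 had 4, Dio2 had 3, Zic1 had 2 and each other gene had 1. RonTK-/- and RonTK+/+ glands were compared at 5, 6 and 7 weeks of age on Affymetrix arrays, which gave 6 groups of 3 arrays, 18 in all. No other allele, treatment or agent is named in the labels for either genotype. The labels do not state whether the 3 arrays of a group came from separate animals, so the p-values below measure only the spread between these arrays. RNA came from the whole gland, and fat was spun out of the lysate before extraction.

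Brown adipocytes burn fatty acids to make heat. Their mitochondria carry uncoupling protein 1, which lets protons back across the inner membrane without making ATP, and cold, sensed through noradrenaline and cyclic AMP, turns up the genes for uncoupling, fat oxidation and thyroid hormone activation. The fat pad of the mouse mammary gland is mostly white adipose tissue in which such cells can appear among white adipocytes. Cox7a1, Cox8b and Ppargc1a are also expressed in skeletal muscle, a tissue that lies next to the mammary glands, so each gene is set below against muscle transcripts in the same array.

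The sequence just before the transcription start is shown for Ucp1, Otop1, Cox7a1 and Cox8b. That of Ppargc1a, which muscle also expresses, was searched but is not shown. Promoters came from RefSeq (GRCm38.p6) and were matched by symbol for 8 of the 10 genes, and Cidea and Elovl3 were not used here. Both strands were searched for AGGTCA, the half-site of nuclear receptors such as the PPARs, and for CAGCTG, an E-box form bound by myogenic factors. The cyclic AMP response element was searched as TGACGTCA. The core element read by the general transcription machinery was searched as TATAAA. No searched motif contains another. The 250 bases before the start of Ucp1 lie at chr8:83290098-83290347 on the plus strand, those of Otop1 at chr5:38277154-38277403 on the plus strand, those of Cox7a1 at chr7:30183921-30184170 on the plus strand and those of Cox8b at chr7:140900447-140900696 on the minus strand. Each is written 5′ to 3′ along its gene, and capitals mark a match.
Ucp1: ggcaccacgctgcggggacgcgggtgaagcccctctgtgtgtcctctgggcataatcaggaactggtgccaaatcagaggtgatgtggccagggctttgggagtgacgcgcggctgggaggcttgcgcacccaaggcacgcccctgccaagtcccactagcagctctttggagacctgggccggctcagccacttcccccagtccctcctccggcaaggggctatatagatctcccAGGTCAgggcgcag
Otop1: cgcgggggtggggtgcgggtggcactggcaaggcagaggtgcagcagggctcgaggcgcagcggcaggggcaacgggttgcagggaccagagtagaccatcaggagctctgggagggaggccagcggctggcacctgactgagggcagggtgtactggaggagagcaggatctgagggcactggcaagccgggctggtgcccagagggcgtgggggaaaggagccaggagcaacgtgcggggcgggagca
Cox7a1: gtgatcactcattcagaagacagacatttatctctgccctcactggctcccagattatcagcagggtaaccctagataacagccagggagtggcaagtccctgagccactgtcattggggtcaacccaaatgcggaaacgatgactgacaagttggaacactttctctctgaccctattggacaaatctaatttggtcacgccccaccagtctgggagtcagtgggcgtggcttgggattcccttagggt
Cox8b: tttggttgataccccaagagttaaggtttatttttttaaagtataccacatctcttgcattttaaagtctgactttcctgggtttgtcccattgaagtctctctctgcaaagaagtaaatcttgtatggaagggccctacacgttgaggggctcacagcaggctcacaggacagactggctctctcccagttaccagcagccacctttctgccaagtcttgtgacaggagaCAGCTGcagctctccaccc

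Ucp1 held AGGTCA, starting 14 bases before its transcription start, which 14% of the 32851 mouse promoters of that length also held. Cox8b held CAGCTG 19 bases before its start, found in 13% of promoters. Dio2, which is induced by cyclic AMP in brown fat, held TGACGTCA 95 bases before its start (1.55% of promoters) and TATAAA 30 bases before it (12.4%). None of these letters was present in the window of Otop1, Cox7a1, Ppargc1a, Zic1 or Prdm16. A match is a description of letters and does not show that a factor binds.

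Values are log2 ratios, and for 87.37% of probe sets the value 0 is the median of the RonTK+/+ arrays. Absolute levels cannot be recovered, so no gene's level was set against another's. Mst1r itself, measured by a single probe set, ran from 0.808 to 1.40 times the reference in RonTK+/+ and from 0.740 to 2.10 times in RonTK-/- arrays, and the position of that probe set relative to the deletion is unknown, so its level is no test of the genotype labels. Skeletal muscle transcripts set arrays apart within groups. The mean log2 ratio of 26 muscle genes lay between -5.23 and -3.47 in 8 arrays, namely array 2 of each RonTK+/+ age group, 6-week RonTK+/+ array 3, 5-week RonTK-/- array 3 and the 3 RonTK-/- arrays of the 6-week group. In the remaining 10 it lay between 0.01 and 0.83, and these are called muscle-rich below. B lymphocyte genes (11 of 12 measured) moved with this split, with a list mean between 0.08 and 0.82 in the muscle-poor arrays and between -2.01 and 0.10 in the muscle-rich ones. T lymphocyte genes (10 of 12 measured) had list means between 0.07 and 0.87 in the former and between -2.33 and 0.26 in the latter. White adipocyte genes (15 of 17 measured) spanned -0.27 to 0.35 and -0.54 to 0.46, which overlap. The part of muscle and lymphocyte content in the genotype differences below was not tested beyond the muscle covariate. In whole tissue, fewer cells of a type and less RNA per cell cannot be told apart.

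Ucp1, the uncoupling protein that defines thermogenic fat, varied more over the arrays than 98.99% of genes. RonTK+/+ log2 ratios of Ucp1 were 0.22, -4.12 and 0.61 (5 weeks), 0.22, -1.24 and 0 (6 weeks), and -0.20, -2.48 and 1.04 (7 weeks), for arrays 1, 2 and 3 in turn. RonTK-/- arrays gave 0.99, 0.26 and 0.63 (5 weeks), 0.49, -0.90 and -1.76 (6 weeks), and 0.58, 0.73 and 0.65 (7 weeks). The low values were those of RonTK+/+ array 2 at every age and 6-week RonTK-/- arrays 2 and 3. The span from the lowest to the highest array was 35.6-fold, from a ratio of 0.0576 to 2.05. All 5 of these arrays were poor in muscle, yet the remaining 3 muscle-poor arrays, 6-week RonTK+/+ array 3 (0), 5-week RonTK-/- array 3 (0.63) and 6-week RonTK-/- array 1 (0.49), held Ucp1 within the range of the muscle-rich arrays, -0.20 to 1.04.

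Otop1, which encodes a proton channel that is abundant in brown fat, ordered the arrays much as Ucp1 did (Spearman rho = 0.87 over 18 arrays). Its RonTK+/+ log2 ratios were 0, -2.08 and 0.05 (5 weeks), 0.40, -0.57 and 0.04 (6 weeks), and -0.66, -1.38 and 0.83 (7 weeks). RonTK-/- ratios of Otop1 were 0.42, -0.44 and 0.72 (5 weeks), 0.73, -0.03 and -1.04 (6 weeks), and 0.11, 0.66 and 0.07 (7 weeks). The lowest Otop1 arrays were RonTK+/+ array 2 at 5 and 7 weeks and 6-week RonTK-/- array 3, also the lowest for Ucp1. The muscle-poor 5-week RonTK-/- array 3 and 6-week RonTK-/- array 1 were among the highest. Its 8 muscle-poor arrays spanned -2.08 to 0.73 and the muscle-rich arrays -0.66 to 0.83, so the ranges overlapped.

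Cidea, a lipid droplet protein of thermogenic adipocytes, spanned 3.34-fold. Cidea log2 ratios in RonTK+/+ arrays were 0.01, -0.89 and 0.04 (5 weeks), 0.09, -0.43 and 0 (6 weeks), and -0.57, -1.31 and 0.38 (7 weeks). In RonTK-/- arrays they were -0.17, -0.48 and 0.20 (5 weeks), 0.01, -0.30 and -1.36 (6 weeks), and -0.12, -0.02 and -0.14 (7 weeks). The 3 lowest Cidea arrays were also the 3 lowest for Ucp1 and Otop1. Elovl3, an elongase of very long chain fatty acids that is induced in brown fat by cold and also expressed in skin glands, ran from -1.37 in 6-week RonTK-/- array 3 to 3.24 in 7-week RonTK+/+ array 3, a span of 24.4-fold. Its median was 0 in RonTK+/+ and 0.90 in RonTK-/- arrays, and the genotypes overlapped at every age. The array lowest in Elovl3 was also among the 3 lowest for Ucp1, and the highest in Elovl3 was the highest for Ucp1 (1.04). The next highest Elovl3 arrays were RonTK+/+ array 1 (2.23) and RonTK-/- array 1 (2.00) at 6 weeks, in which Ucp1 was 0.22 and 0.49. In these 2 arrays the mean of 13 epidermis and hair genes was 1.26 and 2.15, the highest of the 18. The array highest in Elovl3 had a mean of 0.14, and 5-week RonTK+/+ array 3, with Elovl3 at 1.20, had 1.20. The part of these genes in the Elovl3 values was not tested.

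**Figure D1:**
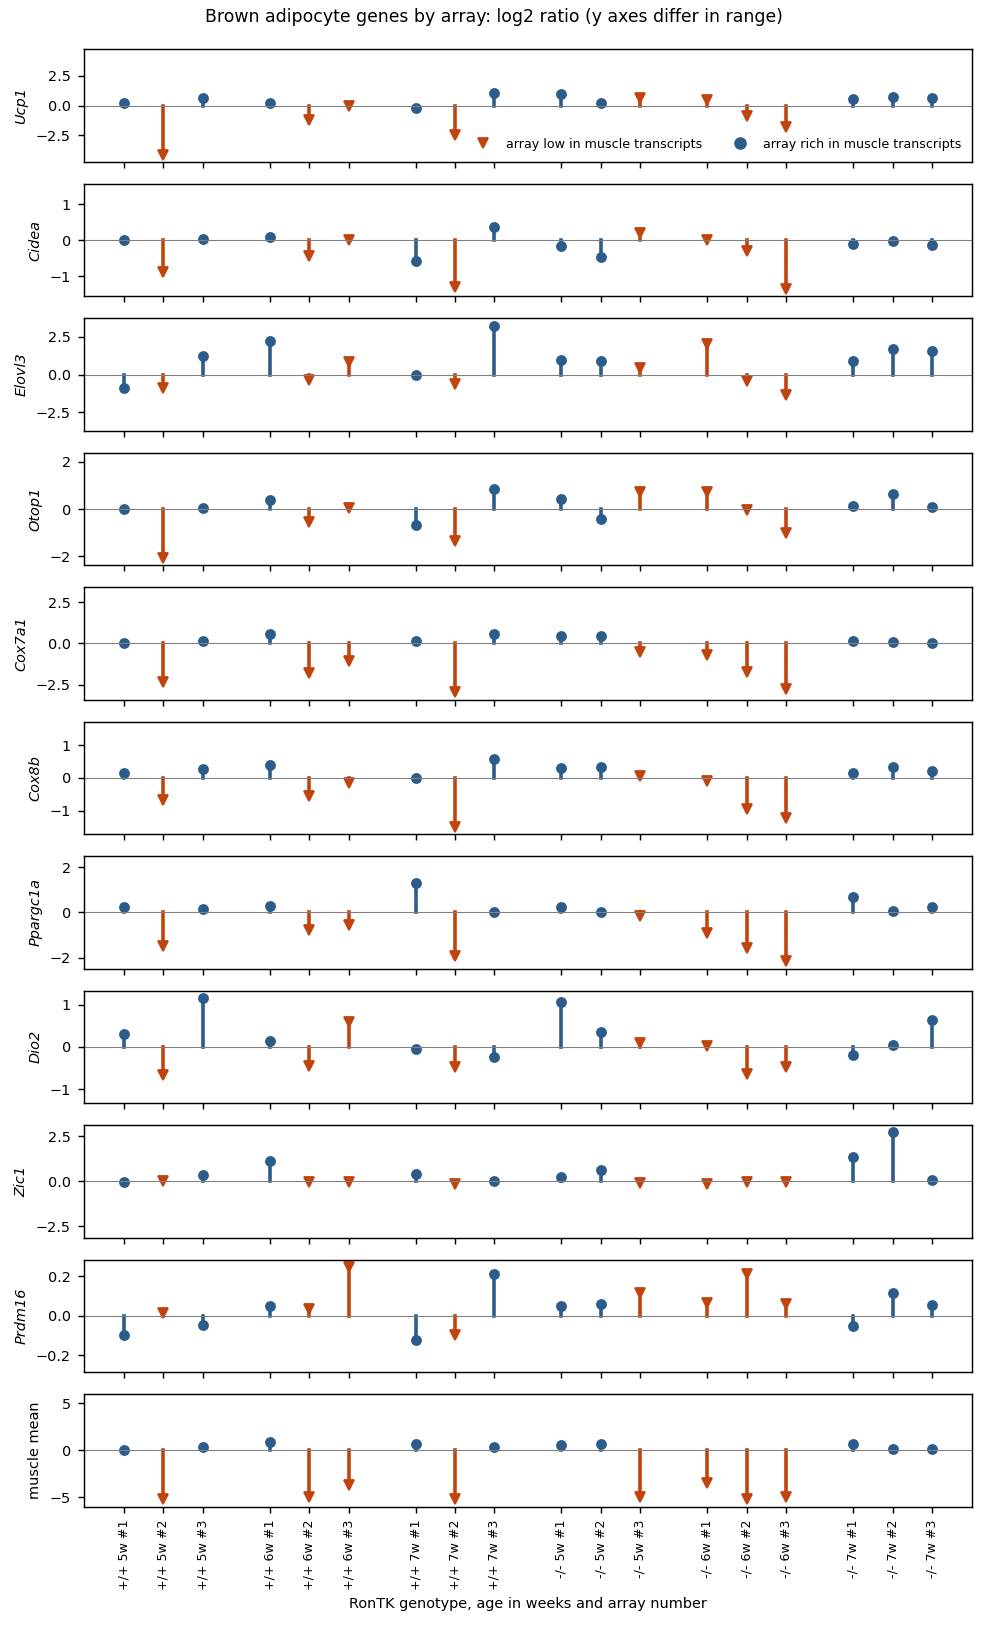
Log2 ratio of each of the 10 genes and the mean of 26 skeletal muscle genes (y axes, each with its own range) in each of the 18 arrays (x axis: RonTK genotype, age in weeks, array number). Triangles mark the 8 arrays low in muscle and circles the 10 rich in it. Cox7a1 and Ppargc1a lie lower in all 8 triangles than in any circle, while Ucp1 and Otop1 reach 0.63 and 0.73 in triangles.

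Cox7a1 and Cox8b encode the heart and muscle type isoforms of cytochrome c oxidase subunits, which brown fat also uses. Cox7a1 log2 ratios were 0, -2.34 and 0.13 (5 weeks), 0.58, -1.75 and -1.06 (6 weeks), and 0.16, -2.96 and 0.57 (7 weeks) in RonTK+/+ arrays. The RonTK-/- values of Cox7a1 were 0.48, 0.47 and -0.48 (5 weeks), -0.70, -1.73 and -2.75 (6 weeks), and 0.16, 0.11 and 0.02 (7 weeks). Every muscle-poor array (-2.96 to -0.48) lay below every muscle-rich array (0 to 0.58). Cox8b gave 0.16, -0.68 and 0.28 (5 weeks), 0.40, -0.54 and -0.15 (6 weeks), and 0, -1.50 and 0.59 (7 weeks) in RonTK+/+ arrays. In RonTK-/- arrays Cox8b gave 0.31, 0.33 and 0.06 (5 weeks), -0.10, -0.95 and -1.23 (6 weeks), and 0.15, 0.34 and 0.21 (7 weeks). Its ranges met, since 5-week RonTK-/- array 3 (0.06), which was poor in muscle and not low in Ucp1, lay above the lowest muscle-rich array (0).

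In range over the arrays, these 2 subunits lay between the striated muscle isoform and the ubiquitous isoforms, a difference that was not tested for Cox8b. Cox6a2, the striated muscle isoform of another subunit, lay between -4.58 and -3.62 in the muscle-poor arrays and between 0 and 0.88 in the muscle-rich ones. In 5-week RonTK-/- array 3, the muscle-poor array highest in Cox7a1 and Cox8b, Cox6a2 was -4.18 while Cox7a1 was -0.48 and Cox8b 0.06. The ubiquitous isoforms Cox7a2 (-0.29 to 0.23), Cox8a (-0.20 to 0.22), Cox6a1 (-0.21 to 0.32) and Cox4i1 (-0.22 to 0.17), and the lung isoform Cox4i2 (-0.12 to 0.19), kept a narrow range over all 18 arrays.

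Ppargc1a, the coactivator that drives mitochondrial biogenesis in brown fat and muscle, followed the muscle split. Ppargc1a log2 ratios in RonTK+/+ arrays were 0.23, -1.46 and 0.17 (5 weeks), 0.28, -0.76 and -0.54 (6 weeks), and 1.31, -1.94 and 0 (7 weeks). RonTK-/- arrays gave 0.24, 0.03 and -0.14 for Ppargc1a (5 weeks), -0.91, -1.57 and -2.16 (6 weeks), and 0.66, 0.04 and 0.22 (7 weeks). All muscle-poor arrays (-2.16 to -0.14) lay below all muscle-rich ones (0 to 1.31). Ppargc1a was highest in 7-week RonTK+/+ array 1 (1.31), where Ucp1 was -0.20. Cox7a1 and Ppargc1a were the 2 of 10 genes whose muscle-rich arrays lay wholly above the muscle-poor ones, which held for 4.77% of the 18167 genes outside the muscle list, and 0 of 10 lay wholly below, against 2.76%.

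Dio2, the deiodinase that activates thyroid hormone inside the brown adipocyte, ranged from -0.67 to 1.16, with its highest values in RonTK+/+ array 3 (1.16) and RonTK-/- array 1 (1.06) at 5 weeks. Its probe sets differed in range, from -0.34 to 0.60 for the narrowest and from -1.27 to 1.61 for the widest. Zic1, a zinc finger transcription factor gene that marks classical brown fat and is also active in neural and dorsal mesoderm tissue, stood apart in a few arrays. Its log2 ratios were 1.34, 2.72 and 0.09 in RonTK-/- arrays at 7 weeks, 1.11, -0.03 and -0.06 in RonTK+/+ arrays at 6 weeks, and between -0.15 and 0.64 in the other 12 arrays. Both Zic1 probe sets were highest in 7-week RonTK-/- array 2, at 3.03 and 2.40. In the muscle-poor arrays Zic1 stayed between -0.15 and 0.00, also where Ucp1 was lowest. Prdm16, a determinant of brown and beige fate, spanned only 1.29-fold, from -0.12 to 0.25, and 30.7% of genes had a smaller SD. That span is of the mean of 4 probe sets, whose genotype differences over the 3 ages ran from -0.071 to 0.28. Over all 18 arrays Zic1 and Prdm16 had the lowest correlations with Ucp1 among the 10 genes. Within the muscle-poor and the muscle-rich arrays the correlation was 0.58 and 0.69 for Prdm16, and -0.42 and 0.04 for Zic1.

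Each gene was fitted on the muscle mean and on Ucp1 together, with a mean for each of the 6 groups. Ucp1 is 1 gene with 1 probe set, so a slope on it is not a slope on brown fat content. A slope is the change in a gene's log2 ratio per log2 unit of the muscle mean at a given Ucp1, or per log2 unit of Ucp1 at a given muscle mean. The 2 measures themselves correlated across the 18 arrays (Pearson r = 0.69, and 0.73 after removal of group means), and Ucp1 and the other genes were measured in the same RNA. Cox7a1 rose with muscle by 0.25 ± 0.054 (SE) per unit (limma adjusted p = 0.00641). It was the only called gene of the 9 other than Ucp1, against 9.42% of 18166 genes called with a positive slope, and 0 of 9 had a called negative slope, against 9.48%. Ppargc1a (0.16 ± 0.073, adjusted p = 0.145), Zic1 (0.15 ± 0.090, adjusted p = 0.27) and Cox8b (0.084 ± 0.041, adjusted p = 0.183) had positive slopes that did not pass. The muscle slopes of Elovl3 (0.078 ± 0.15, adjusted p = 0.778) and Dio2 (0.035 ± 0.058, adjusted p = 0.739) were positive as well and did not pass. Otop1 (-0.098 ± 0.045, adjusted p = 0.152) and Cidea (-0.065 ± 0.041, adjusted p = 0.309) had negative ones that did not pass. For scale, Cox6a2 rose with muscle by 0.91 ± 0.042 (adjusted p = 1.58e-08), and Cox7a2 (0.0052 ± 0.014) and Cox8a (-0.048 ± 0.017, adjusted p = 0.0627) were not called. The 95% interval of the Cox7a1 slope, 0.13 to 0.37, lay wholly below that of Cox6a2, 0.82 to 1.00. The lowest ratio in the deposited values was 0.01, held by 103 values. Acta1, a gene of the muscle list, reached it in muscle-poor arrays of both genotypes. The part of such low values in the muscle slopes was not tested. Without 6-week RonTK+/+ array 1 the Cox7a1 slope was 0.22 and did not pass (adjusted p = 0.0568), and it passed in each of the other 17 fits without 1 array. It was 0.22 (adjusted p = 1) in the 8 muscle-poor arrays alone and 0.64 (adjusted p = 0.335) in the 10 muscle-rich arrays alone.

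On Ucp1, Otop1 rose by 0.68 ± 0.082 (SE) per unit, the smallest p of 18166 genes (limma adjusted p = 0.0377). It was the only called gene of the 9, against 0.0385% of genes called with a positive slope and 0.0055% with a negative one. Slopes on Ucp1 of Cidea (0.41 ± 0.075, adjusted p = 0.137), Cox7a1 (0.39 ± 0.10, adjusted p = 0.221) and Cox8b (0.24 ± 0.075, adjusted p = 0.327) were positive and did not pass. Elovl3 (0.54 ± 0.28), Ppargc1a (0.25 ± 0.13), Dio2 (0.22 ± 0.11), Prdm16 (0.039 ± 0.032) and Zic1 (-0.15 ± 0.17) had 95% intervals that included 0. The Otop1 call was lost in 13 of the 18 fits without 1 array, where its slope stayed between 0.62 and 0.71. Those arrays, with their adjusted p, were 5-week RonTK+/+ array 3 (0.0609), 6-week arrays 2 and 3 (0.0805 and 0.0544) and 7-week arrays 1, 2 and 3 (0.067, 0.0592 and 0.1). The others were 5-week RonTK-/- arrays 1, 2 and 3 (0.0803, 0.143 and 0.414), 6-week arrays 1 and 3 (0.0819 and 0.144) and 7-week arrays 1 and 3 (0.0524 and 0.0655). Without 5-week RonTK+/+ array 2, the array lowest in Ucp1, the slopes on Ucp1 were 0.82 for Otop1 (adjusted p = 0.00514), 0.60 for Cidea (0.0038), 0.64 for Cox7a1 (0.0114) and 0.45 for Cox8b (0.0038), all called, among 390 genes called in place of 8. Without that array the muscle slopes of Cidea (-0.082, adjusted p = 0.0383) and Cox8b (0.065, adjusted p = 0.0321) were called as well. That fit called 3702 genes on muscle, in place of 3434. Otop1 was called negative on muscle (-0.16, adjusted p = 0.0422) without 6-week RonTK+/+ array 1, and Zic1 positive (0.17, adjusted p = 0.0308) without 7-week RonTK-/- array 2. These last fits called 1636 and 3873 genes on muscle in turn. Cox7a1, Cox8b, Ppargc1a, Elovl3 and Dio2 thus had positive slopes on both measures, and of these only that of Cox7a1 on muscle passed in the fit of all 18 arrays.

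**Figure D2:**
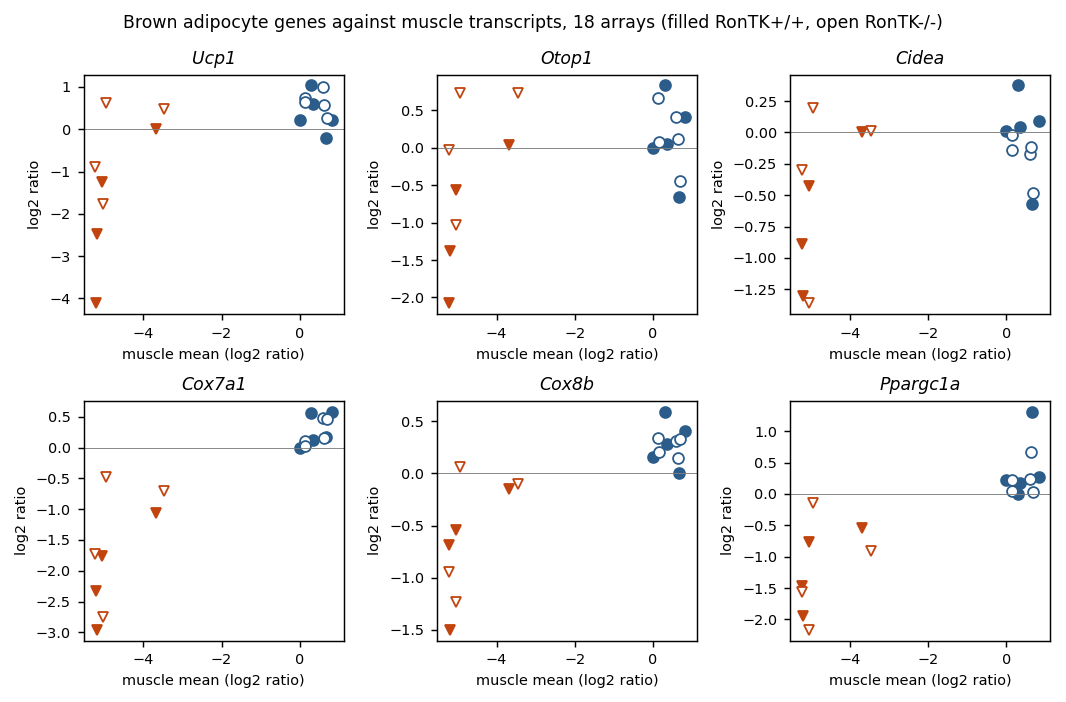
Log2 ratio of 6 of the genes (y axes) against the mean log2 ratio of 26 muscle genes (x axes) in the 18 arrays, filled for RonTK+/+ and open for RonTK-/-, with triangles for the arrays low in muscle. At the left of each panel Otop1 and Ucp1 spread from -2.08 to 0.73 and from -4.12 to 0.63, whereas all Cox7a1 and Ppargc1a triangles lie below the circles.

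**Figure D3:**
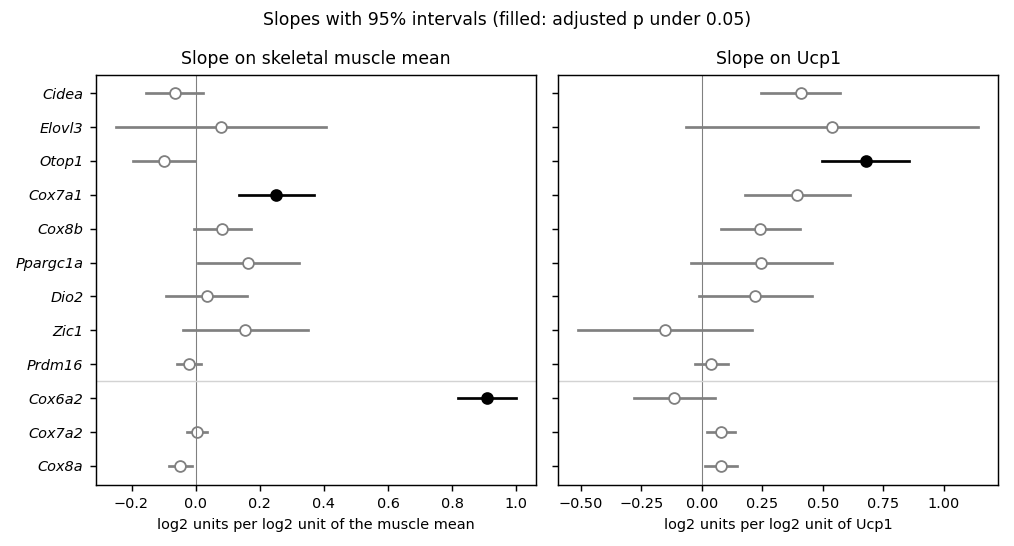
Slope of each gene on the muscle mean (left) and on Ucp1 (right) with its 95% interval, from a fit with both measures and a mean per group over 18 arrays. Filled points passed the adjusted p of 0.05, which were Cox7a1 and Cox6a2 on muscle and Otop1 on Ucp1.

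As a description of likeness, the log2 ratios of each gene were correlated with those of Ucp1 across the 18 arrays, which share their RNA and group structure. Otop1 (r = 0.92) ranked 2 among all genes. Cox7a1 (r = 0.86) ranked 44, Cox8b (r = 0.81) ranked 124 and Cidea (r = 0.80) ranked 154, while Zic1 (r = 0.32) and Prdm16 (r = 0.21) came last of the 10 genes. Within the 8 muscle-poor arrays the correlation was 0.98 for Otop1, 0.79 for Cidea and 0.84 for Cox7a1. Within the 10 muscle-rich arrays it was 0.80 for Otop1, 0.62 for Cidea, 0.22 for Cox7a1 and -0.63 for Ppargc1a. Without RonTK+/+ array 2 at 5 and at 7 weeks, the 2 arrays farthest from the Ucp1 median, it was 0.79 for Otop1, 0.79 for Cidea, 0.87 for Cox7a1, 0.91 for Cox8b and -0.01 for Prdm16 over 16 arrays. Elovl3 (0.75 in the muscle-poor and 0.59 in the muscle-rich arrays), Cox8b (0.67 and 0.64) and Prdm16 (given above) had a positive r in both sets as well. The differences in r between the sets were not tested. Outside the group, the 10 genes most like Ucp1 were Ndufb6 (r = 0.92), Cycs (0.91), Dnaja3 (0.90), Uqcrfs1 (0.90), Uqcr11 (0.89), Uqcrb (0.89), Ghitm (0.89), Hadha (0.89), Pyurf (0.89) and Gatad1 (0.89). Ndufb6, Uqcrfs1, Uqcr11 and Uqcrb encode respiratory chain subunits, Cycs encodes cytochrome c, and Hadha an enzyme of fatty acid oxidation. These genes also correlated with the muscle mean, from 0.59 for Hadha to 0.87 for Uqcrb, and Cycs (0.054, adjusted p = 0.0445) and Uqcrb (0.047, adjusted p = 0.0218) rose with muscle in the limma fit. Within the muscle-poor arrays the r of these 10 genes outside the group with Ucp1 ran from 0.92 for Ghitm to 0.98 for Uqcrb. In the muscle-rich arrays it ran from 0.28 for Cycs to 0.68 for Hadha. These genes were picked by their r over all 18 arrays, so a high r within part of the same arrays adds no support. Their log2 ratios covered a far narrower range than Ucp1, from -0.68 to 0.32 for Ndufb6 and from -0.78 to 0.33 for Cycs. Among the members, the closest pair was Cox7a1 with Cox8b (r = 0.97), ahead of Ucp1 with Otop1 (0.92), Cox7a1 with Ppargc1a (0.91) and Cidea with Otop1 (0.88).

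Other genes of the thermogenic program, 50 of 56 listed, had small slopes on Ucp1 that were mostly positive. Of these, 43 lay above 0 (median 0.14, against a median of -0.0034 over all 18166 genes), and 0 passed limma's test (smallest adjusted p = 0.151). At an unadjusted p under 0.05, 1697 of all 18166 genes had a slope on Ucp1. The list genes with the smallest p were those of fatty acid oxidation and uptake into mitochondria, Cpt2 (0.17 ± 0.035), Hadha (0.25 ± 0.052), Slc25a20 (0.29 ± 0.063) and Acaa2 (0.25 ± 0.055). On muscle, 4 of the 50 rose, a share near the 9.42% of all genes and so not particular to the list. They were the transcription factor genes Lhx8 (0.28 ± 0.063, adjusted p = 0.00891), Esrrb (0.076 ± 0.022, adjusted p = 0.0298) and Zfp516 (0.044 ± 0.014, adjusted p = 0.0454) and the mitochondrial carrier gene Slc25a34 (0.11 ± 0.031, adjusted p = 0.0287). White adipocyte genes (15 of 17 measured) showed 9 called negative slopes on muscle (median -0.10, against 9.48% of all genes called negative), among them Lpl, Cebpa, Adipoq and Pparg, and 14 of 15 slopes above 0 on Ucp1 with 0 called (median 0.14, smallest adjusted p = 0.209). White adipocyte and thermogenic genes had like medians on Ucp1, and Lipe and Pnpla2 are in both lists. Endothelial genes (10 of 10 above 0, median 0.094) and epidermis and hair genes (12 of 13, median 0.10) also lay mostly above 0 on Ucp1. Luminal epithelium genes (1 of 12 above 0) and macrophage genes (3 of 12) lay mostly below it, and 0 were called in these lists. Of 12 genes used to tell beige from brown fat, 1 rose with muscle, the developmental gene Tbx15 (0.37 ± 0.030, adjusted p = 2.18e-06), and 6 fell, among them Hoxc8 (-0.20 ± 0.034), Shox2 (-0.13 ± 0.020) and Tmem26 (-0.13 ± 0.026), and on Ucp1 0 were called. Of all genes 9.42% rose and 9.48% fell with muscle.

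Between genotypes, no brown adipocyte gene passed the test at any age. Over the 3 ages limma called 0 of the 10 genes, against 0.0605% of 18193 genes (686 at an unadjusted p under 0.05). Ucp1 differed by 0.85 ± 0.62 (SE, n = 9 against 9, 95% interval -0.49 to 2.18, adjusted p = 1) and Otop1 by 0.51 ± 0.37 (adjusted p = 1), RonTK-/- minus RonTK+/+. The median of the 10 genes was 0.14, with 9 above 0, against 0.0028 over all genes. White adipocyte genes lay on the same side (15 of 15 above 0, median 0.19), as did 9 of 10 endothelial genes (median 0.077), with 0 called in either list. Without 5-week RonTK+/+ array 2 the differences over the 3 ages were 0.34 for Ucp1 and 0.27 for Otop1, and without 7-week RonTK+/+ array 2 that of Ucp1 was 0.53. The 18 fits without 1 array gave 0.34 to 1.13 for Ucp1 and 0.27 to 0.71 for Otop1.

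At 5 weeks all 10 differences lay above 0 with a median of 0.36 and 0 called (0.011% of all genes, 623 at an unadjusted p under 0.05), and the muscle genes had a median difference of 0.37. The Ucp1 difference was 1.72 ± 1.08 (SE, n = 3 against 3, 95% interval -0.59 to 4.03, adjusted p = 0.999), from means of -1.10 and 0.63. Without RonTK+/+ array 2, which was low in Ucp1 and in muscle, it was 0.21, that of Otop1 went from 0.91 to 0.21 and that of Cox7a1 from 0.89 to 0.09. In the 18 fits without 1 array the highest differences were 2.57 for Ucp1, 1.27 for Otop1 and 1.32 for Cox7a1. Prdm16 was the 1 gene of the 10 whose arrays did not overlap at this age, where 5.12% of all genes had RonTK-/- arrays wholly above and 3.09% wholly below. Its log2 ratios were -0.10, 0.01 and -0.05 in RonTK+/+ and 0.05, 0.06 and 0.12 in RonTK-/- arrays, a difference of 0.12 ± 0.088 that did not pass (adjusted p = 0.999). Its 4 probe sets differed by 0.41, 0.084, 0.024 and -0.041, so most of the difference came from 1 of them.

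At 6 weeks 9 of 10 differences lay below 0 with a median of -0.44 and 0 called (0.0165% of all genes, 1119 at an unadjusted p under 0.05). All 3 RonTK-/- arrays were poor in muscle and so were RonTK+/+ arrays 2 and 3, and the 26 muscle genes had a median difference of -1.97. Ppargc1a had the largest difference, -1.21 ± 0.65 (95% interval -2.60 to 0.19, adjusted p = 0.819), and its RonTK-/- arrays lay wholly below its RonTK+/+ arrays. It was the 1 gene of the 10 without overlap at this age, where 8.77% of all genes had RonTK-/- arrays wholly below and 5.55% wholly above. With the muscle mean as a covariate the Ppargc1a difference was -0.70 (adjusted p = 0.856), that of Cox7a1 went from -0.98 to -0.19, and that of Ucp1 turned from -0.39 to 0.38 (adjusted p = 0.994).

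At 7 weeks all 10 differences again lay above 0, with a median of 0.53 and 0 called (0.033% of all genes, 1774 at an unadjusted p under 0.05), and the muscle genes had a median difference of 1.83. White adipocyte genes (15 of 15, median 0.37) and endothelial genes (10 of 10, median 0.27) also lay above 0, and B lymphocyte (11 of 11, median -0.49) and T lymphocyte genes (10 of 10, median -0.64) below it, with 0 called in these lists. Their part in the differences was not tested. For 0 of the 10 genes did the arrays not overlap, against 6.38% of all genes with RonTK-/- arrays wholly above and 3.35% wholly below. Zic1 had the largest, 1.30 ± 0.48 (95% interval 0.26 to 2.34, limma adjusted p = 0.434), with RonTK+/+ arrays at 0.40, -0.15 and -0.01 and RonTK-/- arrays at 1.34, 2.72 and 0.09. It was 0.63 without RonTK-/- array 2 and at most 1.95 in the 18 fits without 1 array. RonTK-/- array 3 lay among the RonTK+/+ values. Ucp1 differed by 1.20 ± 1.08 (95% interval -1.10 to 3.51, adjusted p = 0.758), with RonTK-/- arrays close together (0.58 to 0.73) between RonTK+/+ arrays at -2.48 and 1.04. Without RonTK+/+ array 2 the Ucp1 difference was 0.24, and those of Cox7a1, Cox8b and Ppargc1a turned to -0.27, -0.06 and -0.35. The highest in the 18 fits without 1 array were 2.00, 1.49, 0.98 and 1.28 for Ucp1, Cox7a1, Cox8b and Ppargc1a in turn. With the muscle mean as a covariate the difference was 0.53 for Ucp1 (limma adjusted p = 0.824), 0.14 for Cox7a1 and 1.14 for Zic1 (adjusted p = 0.37).

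The genotype difference of the 10 genes was tested for a change between ages by the interaction term, which called 0 of them and 0 of 18193 genes (0%, limma), with 1240 genes at an unadjusted p under 0.05. The smallest adjusted p among the 10 was 0.697. Change with age was called for 0 of 10 genes in RonTK+/+ (0.104% of all genes, 1623 at an unadjusted p under 0.05) and for 0 of 10 in RonTK-/- (0.0385% of all genes, 3192 at an unadjusted p under 0.05). Ppargc1a means in RonTK-/- glands were 0.04 ± 0.19 (5 weeks), -1.55 ± 0.63 (6 weeks) and 0.31 ± 0.32 (7 weeks) (SD, n = 3, adjusted p = 0.261), and those of Zic1 were 0.26 ± 0.37, -0.06 ± 0.07 and 1.38 ± 1.32 (adjusted p = 0.258). All RonTK-/- arrays at 6 weeks were poor in muscle and all at 7 weeks rich in it, so age and muscle content cannot be told apart between those groups.

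**Figure D4:**
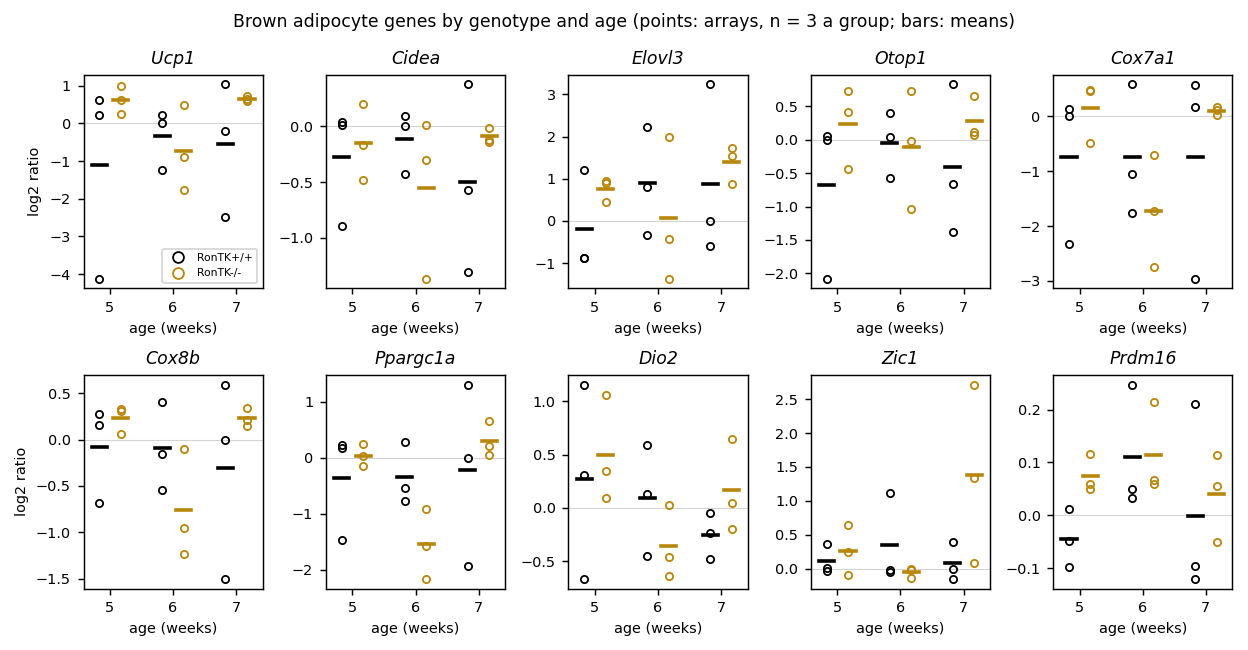
Log2 ratio of each gene (y axes) by age in weeks (x axes), black for RonTK+/+ and gold for RonTK-/-, with a point for each of 3 arrays per group and a bar for the mean. For Ucp1 the lowest points are RonTK+/+ array 2 at 5 and 7 weeks (-4.12 and -2.48), while the RonTK-/- arrays at 7 weeks lie between 0.58 and 0.73.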

How the data were processed

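Total RNA of 18 samples of whole mammary gland was amplified, labelled with biotin and hybridised to the Affymetrix Mouse Genome array, per the labels' protocols. The deposited values are linear ratios, which was found from the values: every array median is 1, and 87.37% of 45101 probe sets have a RonTK+/+ median within 1e-04 of 1. The software, background correction and summary method are unknown (not given in the sources used here), and signal over background is unknown. The number of arrays limits the precision.

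Groups came from the labels. Leaving out 64 control probe sets, the platform annotation gave 34945 probe sets 1 symbol, 932 several and 9160 none. A gene's value is the mean log2 ratio of its probe sets with 1 symbol, with no pseudocount, for 18193 genes.

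R 4.3.3 with limma 3.58.1 (lmFit, eBayes) and data.table (version 1.17.8) fitted a mean per group to all 18 arrays (12 residual degrees of freedom), or the group means with the mean of 26 muscle genes and Ucp1 (10 residual degrees of freedom). Moderated t statistics tested genotype and slopes, two-sided, and moderated F statistics tested age and the interaction. Benjamini-Hochberg adjustment ran across all genes tested, with calls at an adjusted p under 0.05. Slopes were counted over the 18166 genes outside the muscle list and Ucp1. The code was tested on simulated data. Figures used Python 3.11.15 and matplotlib 3.10.9.

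The 10 genes and the gene lists were chosen with earlier results of these data known. All 10 genes are named, with the named partner isoforms of cytochrome c oxidase, up to 4 genes of a list by smallest p, and the 10 other genes most correlated with Ucp1. Naming white adipocyte, thermogenic and beige genes followed that rule. Alternatives covered the normalization, the pseudocount, a filter on spread, array weights (limma's gene-by-gene method, because its default did not converge), the replicate block, single probe sets, muscle covariates, subsets of arrays and leaving out each array.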

Additional observations from a re-analysis of the deposited data

How the results depend on the processing

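Ratios carry no signal over background, each group holds 3 arrays, and muscle content and Ucp1 correlated, which limits how far their slopes can be separated. Across 32 settings, 2399 values of the 10 genes were recomputed: 2358 kept their direction and side of the threshold or changed sign without a call, 21 lost a call and 20 gained one. Of 1602 values with a sign, 60 changed sign with neither value called, and 0 genotype differences of the 10 genes were called in any setting.

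The Otop1 slope on Ucp1 lost its call when every probe set was tested alone (0.68, adjusted p = 0.0579), with Acta1 as the measure of muscle (0.72, adjusted p = 0.0704) and in the muscle-poor (0.63, adjusted p = 0.11) or muscle-rich arrays alone (0.94, adjusted p = 1). With a pseudocount of 0.1 the slopes on Ucp1 of Cidea (0.47, adjusted p = 0.0334) and Cox7a1 (0.46, adjusted p = 0.0413) were called, among 30 genes in place of 8. Without group means the muscle slopes of Otop1 (-0.10), Cox8b (0.11) and Ppargc1a (0.24) were called, among 4041 genes in place of 3434. With Cidea in place of Ucp1, Cox7a1 (1.03) and Cox8b (0.65) were called on Cidea and Cox8b (0.12) and Ppargc1a (0.21) on muscle. That fit called 693 genes on Cidea and 5255 on muscle. With array weights, age in RonTK-/- was called for Cox7a1 (adjusted p = 0.0286), Cox8b (0.0219), Ppargc1a (0.0203) and Dio2 (0.0276). That setting called 5357 of 18193 genes for age in RonTK-/-, in place of 7, so these calls do not set the members apart from other genes.

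Replicate numbers were not taken to pair the samples. The correlations below cannot decide this, since muscle content also set arrays apart within groups. Deviations of same-numbered RonTK+/+ and RonTK-/- arrays had correlations of 0.63, -0.82 and -0.76 (5 weeks), 0.43, 0.24 and 0.32 (6 weeks), and 0.26, -0.01 and -0.20 (7 weeks). With the replicate block, counts over all genes were 0 for age in RonTK+/+, 1 for age in RonTK-/- and 0 for the slope on Ucp1, where Otop1 had 0.73 (adjusted p = 0.281). The block changed no other call of the 10 genes.

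Counts of called genes over the whole array moved as follows, and the causes were not tested. For genotype over 3 ages (11 called) quantile normalization gave 2, array weights gave 23, probe sets alone gave 28, and the count was 10 to 41 without 1 array. At 5 weeks (2 called) quantile normalization gave 0, array weights 10 and probe sets alone 13, and it was 6 with the muscle covariate and 0 with only the groups compared. At 6 weeks (3 called) it was 0, 8 and 10 under the first 3 of these and 1 with only the groups compared. At 7 weeks (6 called) it was 0, 546 and 10 under the first 3, 10 with the muscle covariate, 3 with only the groups compared and 3 to 886 without 1 array. For age in RonTK+/+ (19 called) quantile normalization gave 4, the more variable genes alone 0, array weights 592 and probe sets alone 0, and it was 192 with the muscle covariate, 0 with only the groups compared and 0 to 350 without 1 array. For age in RonTK-/- (7 called) these were 2, 0, 5357, 0, 11, 0 and 0 to 30, and 11 with the pseudocount. The interaction count ran from 0 to 122 without 1 array. For the muscle slope (3434 called) it was 6993 over probe sets, 2159 with Acta1, 5255 with Cidea, 4 in muscle-poor arrays, 25 in muscle-rich arrays and 1413 to 3873 without 1 array. For the slope on Ucp1 (8 called) it was 30 with the pseudocount, 4 with array weights, 0 over probe sets, 13 without group means, 0 with Acta1, 693 with Cidea, 0 in muscle-poor arrays, 0 in muscle-rich arrays and 0 to 390 without 1 array. Leaving out 7-week RonTK+/+ array 3 gave the highest counts for genotype over 3 ages (41), genotype at 7 weeks (886), age in RonTK+/+ (350), age in RonTK-/- (30) and the interaction (122).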
